A study of Mus musculus with 8 samples.

Results

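The retina of adult mice was described here as it appeared on the 4 arrays labelled wild-type, which were 4 of the 8 samples of the series. These were the arrays titled as controls, and they were taken by their label alone. The other 4 arrays carried samples labelled as knockouts for Mrp4, the gene Abcc4, which encodes the efflux transporter MRP4. Whole retina was collected from aged mice, given as 46-55 weeks in the labels, and total RNA was isolated with TRIzol, labelled with Cy3 and hybridized in a single color to Agilent SurePrint G3 Mouse 8x60K arrays. Which sex the mice had and which strain the wild-type mice were is not clear from the sources used here. Sex-linked genes, described below, differed between the arrays. The methods name tissue from several mice, and whether each sample was a pool or samples shared mice is not clear. The spread between arrays may therefore be partly technical.

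The retina is a layered neural tissue in which rods and cones turn light into an electrical signal. In the outer segment of a rod, the light-absorbing pigment activates the G protein transducin, transducin activates a phosphodiesterase, and the fall in cyclic GMP closes cation channels. Bipolar cells carry the signal inward, horizontal and amacrine cells shape it, and ganglion cells send it to the brain, while Müller glia span the layers. In mice, rods are by far the most abundant retinal cells, and the transcription factors CRX and NRL drive much of the rod program. Lens, pigment epithelium and blood are neighbours of the retina that are not part of the neural tissue.

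Promoters are shown first, because some of the photoreceptor genes described below hold letters that a factor of photoreceptors is known to bind, which played no part in how the genes were listed. In the RefSeq promoter windows (GRCm38.p6, from 250 bases before to 50 bases after a transcript start), the letters TAATCC, the core that CRX is known to bind, were searched on both strands. They stood in 7.06% of all 32851 windows, in 6.33% of those of named genes outside the top 5% by signal and in 8.95% of those of genes within it. They also stood in 7.48% of the windows of genes well above background on no array and in 10.7% of those of olfactory receptor genes. For the rod phototransduction genes, 13 had a window and 7 of the 13 windows (53.8%) held the letters, namely those of Cnga1, Cngb1, Gngt1, Guca1a, Gucy2e, Gucy2f and Sag. Windows of outer segment genes held them in 6 of 19 cases, those of cone genes in 1 of 9, those of bipolar cell genes in 4 of 21 and those of ganglion cell genes in 0 of 11. The 150 bases before the start are given 5′ to 3′ for the rod arrestin Sag, the rod transducin gamma subunit Gngt1, the cone transducin alpha subunit Gnat2, the retinoid carrier Rbp3 and the transcription factor Crx itself, with TAATCC or its reverse complement in capitals.
Sag (chr1:87803530-87803679, + strand): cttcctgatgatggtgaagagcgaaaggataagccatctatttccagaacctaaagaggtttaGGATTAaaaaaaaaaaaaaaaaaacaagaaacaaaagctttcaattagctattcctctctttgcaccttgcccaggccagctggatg
Gngt1 (chr6:3993858-3994007, + strand): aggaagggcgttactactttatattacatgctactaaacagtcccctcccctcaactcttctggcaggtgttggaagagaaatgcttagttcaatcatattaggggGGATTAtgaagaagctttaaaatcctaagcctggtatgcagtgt
Gnat2 (chr3:108092916-108093065, + strand): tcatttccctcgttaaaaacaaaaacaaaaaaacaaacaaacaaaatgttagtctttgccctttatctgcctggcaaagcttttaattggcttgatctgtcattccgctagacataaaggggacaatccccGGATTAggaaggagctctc
Rbp3 (chr14:33953853-33954002, + strand): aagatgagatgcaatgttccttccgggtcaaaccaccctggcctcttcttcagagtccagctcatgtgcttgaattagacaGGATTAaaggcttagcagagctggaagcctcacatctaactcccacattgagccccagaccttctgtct
Crx (chr7:15879956-15880105, - strand): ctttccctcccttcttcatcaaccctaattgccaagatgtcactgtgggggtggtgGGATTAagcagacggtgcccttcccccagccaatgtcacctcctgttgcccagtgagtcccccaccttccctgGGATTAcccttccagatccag

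Counted from the transcript start, the capitals began at position -87 in Sag, -44 in Gngt1, -19 in Gnat2 and -69 in Rbp3, and at positions -94 and -21 in Crx. The 5 genes shown were in the top 5% by signal, but Gucy2e and Gucy2f, which hold the letters as well, were at the 50.8 and 70.4 percentiles. The letters TGCTGA, a core of the sites that NRL and the other MAF factors are known to bind, stood in 19.5% of all windows, in 4 of the 13 rod windows (30.8%), in 6 of the 11 ganglion cell windows (54.5%), in 8 of the 31 windows of retinal transcription factors (25.8%) and in 10 of the 15 windows of lens crystallin genes (66.7%). They stood in 15.4% of the windows of genes in the top 5% by signal and in 18.3% of those of named genes outside it. For genes well above background on no array the share was 22.1%. Cone windows held them in 1 of 9 cases, bipolar cell windows in 4 of 21 and glycolysis windows in 2 of 29. A crystallin pair is shown as well, because lens genes were among the groups that differed between these arrays, with TGCTGA in capitals. Crygs, whose window also held the letters, had none in the 150 bases before the start and is not shown.
Cryaa (chr17:31677781-31677930, + strand): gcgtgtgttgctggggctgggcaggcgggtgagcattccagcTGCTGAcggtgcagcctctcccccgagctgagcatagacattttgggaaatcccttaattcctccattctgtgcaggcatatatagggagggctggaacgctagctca
Cryba1 (chr11:77725294-77725443, - strand): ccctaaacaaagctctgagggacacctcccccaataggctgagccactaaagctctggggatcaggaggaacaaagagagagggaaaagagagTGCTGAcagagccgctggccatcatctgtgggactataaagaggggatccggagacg

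These matches describe letters in a window and are not measured binding sites.

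Each array held 56605 probes other than controls, and no spot was saturated. The share of probes well above background was 66.0% to 68.6% on single arrays and 63.8% (36142 probes) on all 4 together. With 4 arrays, precision is limited by their number. After quantile normalization over the 4 arrays, the probes correlated between arrays with Pearson's r from 0.9895, between arrays 2 and 3, to 0.9967, between arrays 2 and 4. A value in the text is the normalized log2 signal of a probe. The level of a gene is that of its brightest probe, and its place is the percentile of that level among 22911 named genes. The brightness of a probe depends on its sequence as well as on the RNA, so a percentile is a place among probe signals and not a number of transcripts. On all 4 arrays, 15805 of the 22911 genes (69.0%) were well above background, with 14740 of 20013 protein-coding genes (73.7%) and 884 of 2594 lncRNA genes (34.1%). On no array were 5919 genes well above background, and 1187 genes were so on some of the arrays. The top 5% comprised 1145 genes (5.00%) at a mean log2 signal of 13.55 or more.

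The genotype labels were checked first against Abcc4, which is read by a single probe. Relative to the 75th percentile of all spots of the array, its log2 signal was -3.18, -2.76, -3.20 and -2.85 on arrays 1 to 4 labelled wild-type. On the arrays labelled Mrp4-null it was 1.05, 0.88, 0.79 and 1.01. The gene was thus dimmer on every array labelled wild-type than on every array labelled Mrp4-null. Taken alone, this is the opposite of what a loss of the transcript would give. The paper likewise lists this probe first among those upregulated in aged Mrp4-null retina. Whether the labels are exchanged was not tested. Where the probe lies relative to the deleted part of the gene is not given in the sources used here. The 4 arrays are called wild-type below only as their label does, and no value below compares them with the others.

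The markers of the labelled tissue were present. Most genes of the photoreceptors were high in the signal range. The lists of rod phototransduction, cone phototransduction and outer segment structure held 47 genes, all well above background on all 4 arrays. Of these, 35 (74.5%) were in the top 5% of genes, against 5.00% of all named genes, and 21 were in the top 1%. Their mean log2 signal was 14.50, 14.38, 14.44 and 14.42 on arrays 1 to 4, an SD of 0.051 between arrays. In bulk tissue, a larger number of cells of a type and more RNA per cell cannot be told apart.

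**Figure D1:**
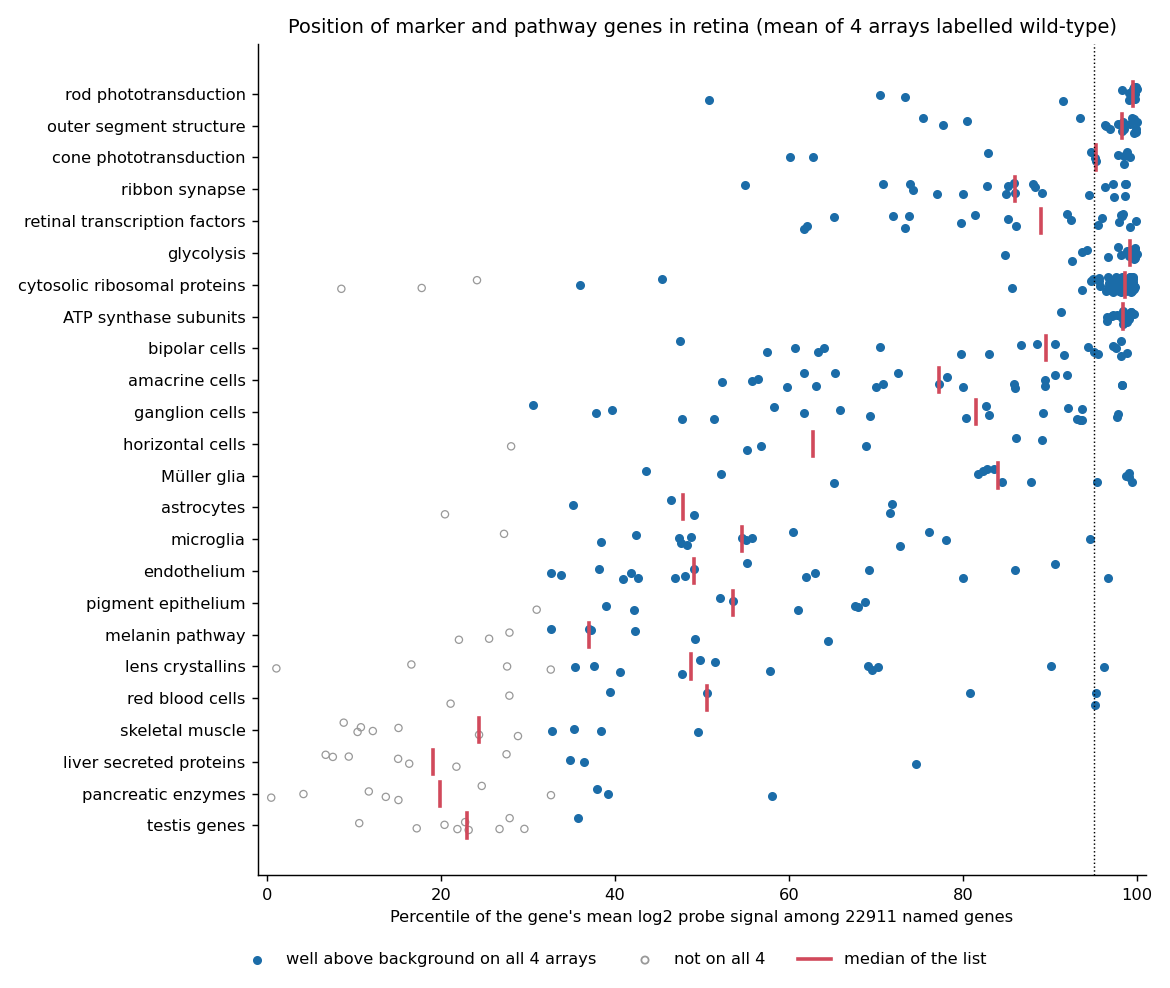
Place of the members of gene lists among 22911 named genes. The horizontal axis is the percentile of the mean log2 probe signal over 4 arrays labelled wild-type, each point is a gene, filled where it was well above background on all 4 arrays, the red bar is the median of the list and the dotted line marks the top 5%. The medians of the rod, outer segment and cone lists lie at or to the right of the dotted line (99.5, 98.3 and 95.2), while those of muscle, liver, pancreas and testis lie between 19.1 and 24.4.

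Among the rod genes, Gnat1, the alpha subunit of rod transducin, was at 17.34, 17.36, 17.24 and 17.28, and Pde6g, the inhibitory subunit of the rod phosphodiesterase, was at 17.27, 17.31, 17.39 and 17.40. Both were among the 30 genes with the highest signal, at ranks 19 and 14. Their SDs of 0.0533 and 0.0652 depended on the normalization, and were 0.142 and 0.236 after a shift to the 75th percentile. Without normalization they were 0.180 for Gnat1 and 0.0673 for Pde6g. Sag, the arrestin that ends the signal of the pigment, was at 15.04, 14.70, 14.84 and 14.73, at the 98.3 percentile. Of the 19 rod genes, 15 were in the top 5% and 14 in the top 1%.

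The 4 rod genes outside the top 5% were Slc24a1, Rgs9, Gucy2f and Gucy2e, at the 91.5, 73.3, 70.4 and 50.8 percentiles. Slc24a1 encodes the rod sodium-calcium exchanger, Rgs9 the regulator that shortens the transducin signal, and Gucy2f and Gucy2e the guanylate cyclases that restore cyclic GMP. Gucy2e was at 7.97, 7.63, 8.28 and 7.81, and Rgs9 at 10.90, 10.14, 11.12 and 10.46. Both were highest on array 3 and lowest on array 2, and Rgs9 had the largest SD of the rod genes, 0.44. Gucy2e had a single probe, and the 4 probes of Rgs9 ranged in mean signal down to 7.18.

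**Figure D2:**
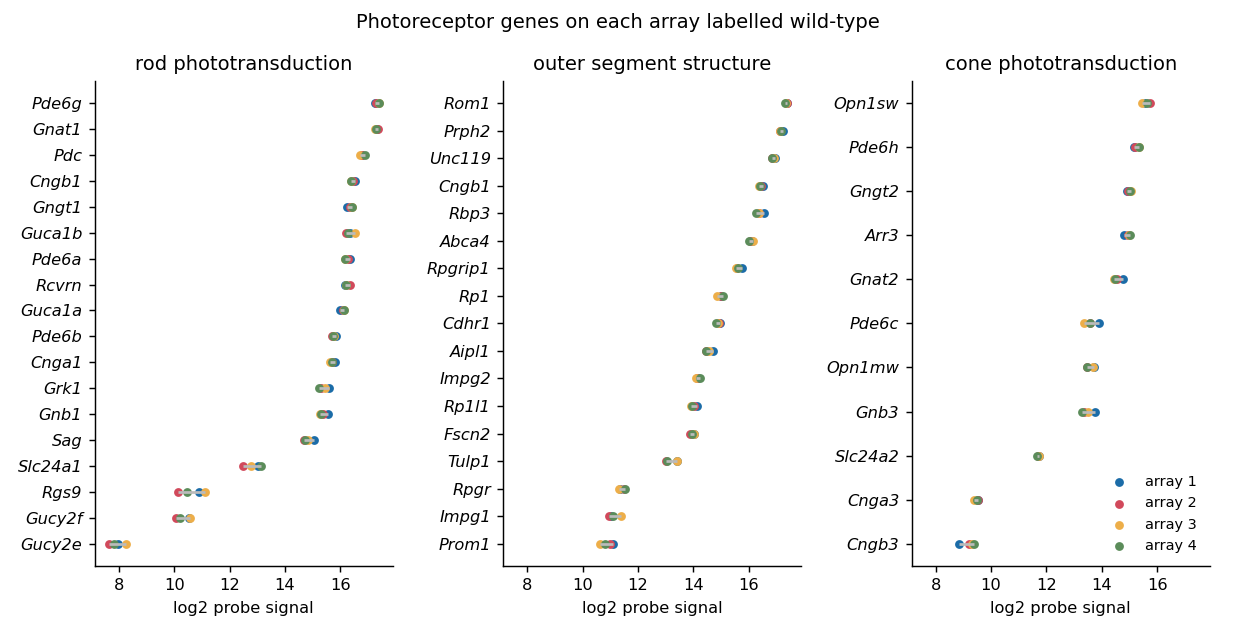
Most genes of 3 photoreceptor lists on each array. The horizontal axes give the normalized log2 probe signal, each row is a gene, the 4 points are arrays 1 to 4 labelled wild-type and the line spans their range. The points of most genes nearly coincide, while Rgs9 and Gucy2e spread more widely.

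By their brightest probes, cone genes were also high, although cones are a minority of photoreceptors. Opn1sw, the short-wavelength cone opsin, was at 15.55, 15.73, 15.46 and 15.65, at the 99.2 percentile. Opn1mw, the middle-wavelength opsin, was at 13.73, 13.47, 13.67 and 13.46, at the 95.2 percentile, with arrays 1 and 3 above arrays 2 and 4. Cone arrestin (Arr3) was at 14.82, 14.95, 14.99 and 15.03. The other probe of Opn1sw had a mean of 11.08 and that of Arr3 one of 11.49. Both lay below the level of 13.55 at which the top 5% begins. Of the 11 cone genes, 7 were in the top 5%. The others were the cone transducin beta subunit Gnb3, at the 94.7 percentile, the exchanger Slc24a2, at 82.9, and the cone channel subunits Cnga3 and Cngb3, at 62.8 and 60.1. Cnga3 was at 9.53, 9.52, 9.39 and 9.51.

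Outer segment genes differed little between arrays. Rom1, a tetraspanin of the disc rim, was at 17.37, 17.37, 17.34 and 17.32, with an SD of 0.0256 that was 0.173 after a shift to the 75th percentile, and Prph2, its partner peripherin, at 17.24, 17.13, 17.13 and 17.17. Of 18 genes, 14 were in the top 5% and 7 in the top 1%.

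The transcription factors of the retina were well above background on all 4 arrays in 20 of 20 cases, against 69.0% of all named genes, and 8 were in the top 5%. Nrl, which sets rod identity, was at 17.21, 17.25, 17.11 and 17.23, at rank 22. Crx was at 15.68, 15.70, 15.68 and 15.67, with an SD of 0.0152 that was 0.0941 after a shift to the 75th percentile and 0.205 without normalization. Otx2, Nr2e3, Neurod1, Esrrb and Rax were also in the top 5%, with means between 13.83 and 14.85. Six3, a factor of eye field development, was the exception in spread, at 11.28, 10.33, 11.00 and 10.26. Its values on arrays 1 and 3 lay above those on arrays 2 and 4, and its SD was 0.50.

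Many genes of energy metabolism were also high, with a median place of 99.2 for glycolysis. The retina is known for converting glucose to lactate even in oxygen. Of 18 glycolysis genes, 14 were in the top 5% and 10 in the top 1%. The aldolase Aldoa was at 17.76, 17.76, 17.66 and 17.69, at rank 5 of all named genes, and Gapdh, Pgk1 and Ldha were at mean signals of 16.81, 16.81 and 16.76. Slc16a1, a lactate transporter, had the largest SD of the list, 0.37. Of the ATP synthase subunits, 16 of 17 were in the top 5%, and of the complex I subunits 27 of 37. Cytochrome c oxidase subunits were in it in 8 of 17 cases, with a median place of 93.1. The sodium pump subunit Atp1b2 was at the 99.1 percentile, whereas Atp1a4, known from sperm, was on no array well above background. Of 83 cytosolic ribosomal protein genes, 74 were in the top 5% (89.2%).

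The lists of the photoreceptor synapse, bipolar cells, amacrine cells and ganglion cells had median places of 86.0, 89.5, 77.2 and 81.5. All 21 ribbon synapse genes were well above background on all 4 arrays, against 69.0% of all named genes, and 6 were in the top 5%, among them Syt1, Cabp4 and Lrit1. The 20 bipolar cell genes were all well above background, with 7 in the top 5%. Pcp2, a Purkinje and bipolar cell protein, was at 15.26, 15.30, 15.24 and 15.09. Grm6, the glutamate receptor of ON bipolar cells, was at 13.54, 13.60, 13.58 and 13.55, with an SD of 0.0273 that was 0.253 without normalization. The lowest place of this list was that of Lrit3, at the 47.4 percentile.

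Amacrine and ganglion cell genes were well above background in 21 of 21 and 20 of 20 cases, against 69.0% of all named genes, with 2 of each list in the top 5%, which holds 5.00% of all. These were the inhibitory transmitter transporters Slc32a1 and Slc6a9 and the ganglion cell genes Thy1 and Nefl. Slc32a1 was at 14.74, 14.85, 14.59 and 14.84, and Thy1, a surface protein of ganglion cells, at 14.49, 14.54, 14.47 and 14.39. Melanopsin (Opn4), the photopigment of the rare light-sensitive ganglion cells, was at 5.57, 5.79, 5.77 and 5.33, at the 37.8 percentile. Atoh7, which acts while ganglion cells are born, was at the 30.6 percentile. Among 6 horizontal cell genes, Calb1 was at 12.45, 12.53, 12.37 and 12.57, and the horizontal cell connexin Gja10, at 3.69, 3.08, 3.75 and 4.10, was well above background on 2 arrays.

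Of all named genes, 69.0% were well above background on all 4 arrays, and the counts for glia and vessels stand beside that share. Of the 14 Müller glia genes, all were well above background and 5 were in the top 5%. Glutamine synthetase (Glul) was at 15.43, 15.57, 15.55 and 15.51, and clusterin (Clu) at 16.03, 16.01, 15.89 and 15.83. Glial fibrillary acidic protein (Gfap), made by astrocytes and by stressed Müller cells, was at 7.57, 7.16, 7.21 and 7.01, at the 46.5 percentile. Array 1 was its highest. Microglia genes were well above background in 14 of 15 cases, with a median place of 54.6. The highest of them, Itgam, at 13.78, 13.23, 13.45 and 13.37, rested on a probe whose companion for the same gene had a mean of 4.32. Endothelial genes were well above background in 17 of 17 cases, with a median place of 49.1. The glucose transporter Slc2a1 was the only one of these 17 in the top 5%. Kdr, the receptor for vascular endothelial growth factor, was at 12.32, 11.96, 12.13 and 11.91.

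Transporters of the ABCC family, to which MRP4 belongs, were well above background in 8 of 10 cases, against 69.0% of all named genes, and none was in the top 5%, which holds 5.00% of all. Abcc5, an exporter of cyclic nucleotides, had the highest place, 80.2, with values of 11.45, 11.29, 11.51 and 11.35. Abcc4 was at 6.56, 7.07, 6.47 and 6.96, or 6.77 ± 0.30 (SD, n = 4), at the 43.8 percentile.

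Families with known roles elsewhere marked the low end. Of 1070 olfactory receptor genes, 96 (8.97%) were well above background on all 4 arrays against 69.0% of all named genes. The counts were 29 of 258 for vomeronasal receptors, 3 of 38 for taste receptors and 4 of 42 for beta-defensins. Lists from liver, pancreas and testis held 3 of 10, 3 of 10 and 1 of 10 such genes. Albumin (Alb), the main liver protein, was at 1.33, 1.60, 2.62 and 1.36 and on no array well above background. The highest of the liver list was the apolipoprotein Apoa2, at 10.79, 10.75, 10.93 and 10.75, at the 74.6 percentile.

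The spread between arrays was small for most genes and large for a few groups. Over the 15805 genes well above background on all 4 arrays, the median SD was 0.139, and 285 genes (1.80%) had an SD of at least 0.5. Without array 4, 442 genes had such an SD. The median SD fell from 0.254 in the dimmest 10% of genes to 0.0951 in the brightest 10%. Quantile normalization makes the brightest values nearly equal between arrays, which lowers the SD there by construction. The spots repeated 10 times on each array allowed spot error to be set apart. For the 298 such probes well above background, the median SD between spots of an array was 0.0378 and the median SD between arrays 0.114. For 280 of them the variance between arrays, with the part from spot error taken out, exceeded the variance between spots of an array.

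**Figure D3:**
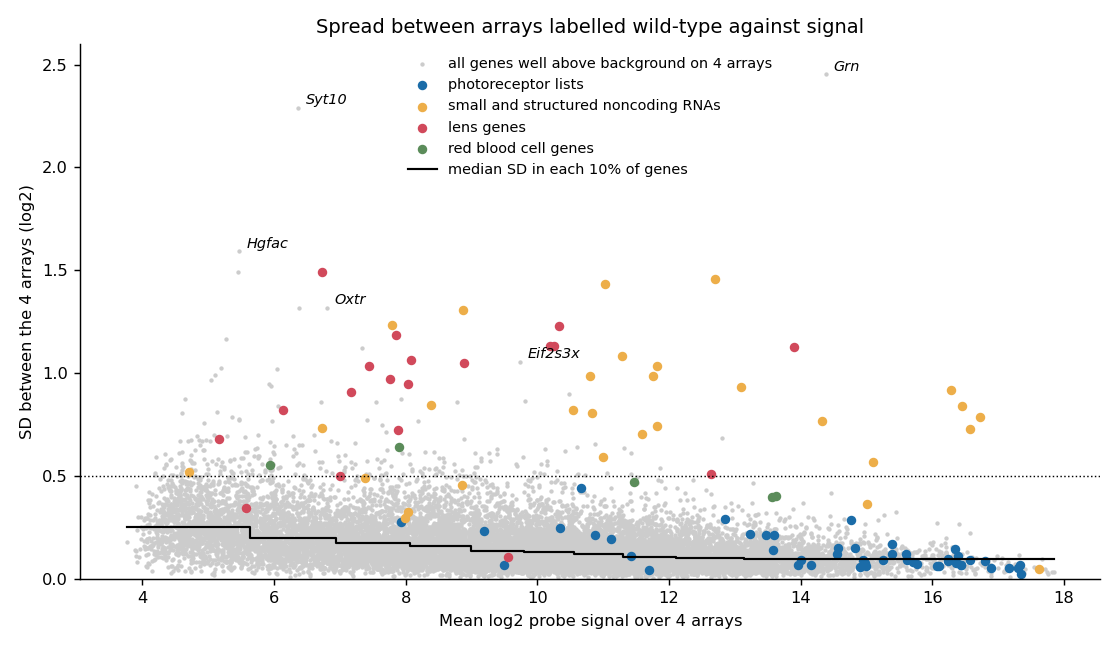
Spread against signal for 15805 genes. The horizontal axis is the mean log2 probe signal over 4 arrays labelled wild-type and the vertical axis the SD between them, the stepped line is the median SD in each 10% of genes and the dotted line marks an SD of 0.5. Lens genes and small noncoding RNAs lie mostly above the dotted line, and photoreceptor genes lie below it with most other genes.

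Lens genes differed widely between the arrays. Their proteins are the crystallins, which fill the lens, and the membrane and filament proteins of lens fibres. Of 28 such genes, 19 were well above background on all 4 arrays, and 17 of the 19 had an SD of at least 0.5, against 1.80% of all genes under the same filter. With 1 gene more that was so on 3 arrays, the mean log2 signal of 20 genes was 8.49, 9.29, 7.23 and 8.01 on arrays 1 to 4, an SD of 0.86. All 20 were highest on array 2, against 29.8% of all genes, and 19 of 20 were lowest on array 3, against 35.3%. Cryaa, the alpha-A crystallin and the brightest of them, was at 14.23, 15.29, 12.71 and 13.34. Cryba1 was at 10.54, 11.87, 8.91 and 9.99, and the lens water channel Mip at 6.94, 8.54, 4.91 and 6.54. In each of these genes array 2 was highest, followed by arrays 1, 4 and 3. Lenep, listed with them for its name as a lens epithelial protein, did not share the spread, at 9.62, 9.64, 9.54 and 9.41. Crystallins are also made at a low level in the retina itself, and how much lens tissue entered each sample was not tested.

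Genes of the pigment epithelium and the melanin pathway moved less. Of 14 well above background on all 4 arrays, 10 were highest on array 2, against 29.8% of all genes, and 9 lowest on array 3, against 35.3%. For the 8 pigment epithelium genes alone, the count highest on array 2 was 6, and 4 after a shift to the 75th percentile. The mean of the 14 was 7.88, 7.98, 7.45 and 7.49. Rpe65, the isomerase of the visual cycle, was at 8.59, 8.73, 7.97 and 8.10, and the melanin enzyme Dct at 10.22, 10.11, 9.16 and 9.24. For both, arrays 1 and 2 lay above arrays 3 and 4. Lrat, which esterifies retinol in the same cycle, was well above background on 2 arrays, with values of 4.89, 5.15, 2.99 and 3.97.

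Blood genes set array 1 apart. The 5 red blood cell genes well above background, which encode globin chains and the heme enzyme Alas2, were all highest on array 1, against 26.6% of all genes. Hba-a1 was at 14.23, 13.49, 13.36 and 13.44. Hbb-b1 was at 8.79, 7.41, 7.93 and 7.44, and Alas2 at 6.76, 5.81, 5.67 and 5.54. The list mean was 11.22 on array 1 and between 10.19 and 10.32 on the others, and the near-identical Hba-a1 and Hba-a2 may share signal. Genes of gliosis were highest on array 1 in 8 of 9 cases, but in 5 of 9 without normalization and in 5 of 9 with normexp background correction. Edn2, the endothelin of stressed photoreceptors, was at 8.85, 8.50, 7.89 and 7.81. The part of blood in these values was not tested.

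Small and structured noncoding RNAs set array 3 apart, a group formed by annotation after their values were seen. It holds the snoRNAs, spliceosomal and other snRNAs, the RNA parts of RNase P and MRP and a few more, which are mostly short and not polyadenylated. Of 29 such genes, all were well above background, against 69.0% of all named genes, 23 had an SD of at least 0.5, against 1.80%, and 27 were highest on array 3, against 25.8% of all genes. Their mean log2 signal was 11.12, 10.89, 12.58 and 11.63, an SD of 0.75 over the 4 arrays and of 0.37 without array 3. Snora34 was at 11.63, 11.61, 14.70 and 12.87, and the U1 gene Rnu1a1 at 16.42, 15.86, 17.71 and 16.93. The ribosomal RNA gene Rn28s1 was at 16.74, 15.64, 17.40 and 16.52. The exceptions were Terc, the telomerase RNA, at 8.51, 7.90, 7.81 and 7.90, and Rn4.5s, at 17.66, 17.66, 17.57 and 17.59. Array 3 also had the lowest 75th percentile of signal, 514 against 566 to 786, and the highest mean of 8 spike-in controls, 12.26 against 10.85 to 11.47 on the log2 scale before normalization. Without normalization the noncoding RNAs were still highest on array 3, with means of 11.25, 11.17, 12.35 and 11.48, while all detected genes were lowest there, at 9.35 against 9.49 to 9.95. The part of RNA quality or labelling in these values was not tested.

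**Figure D4:**
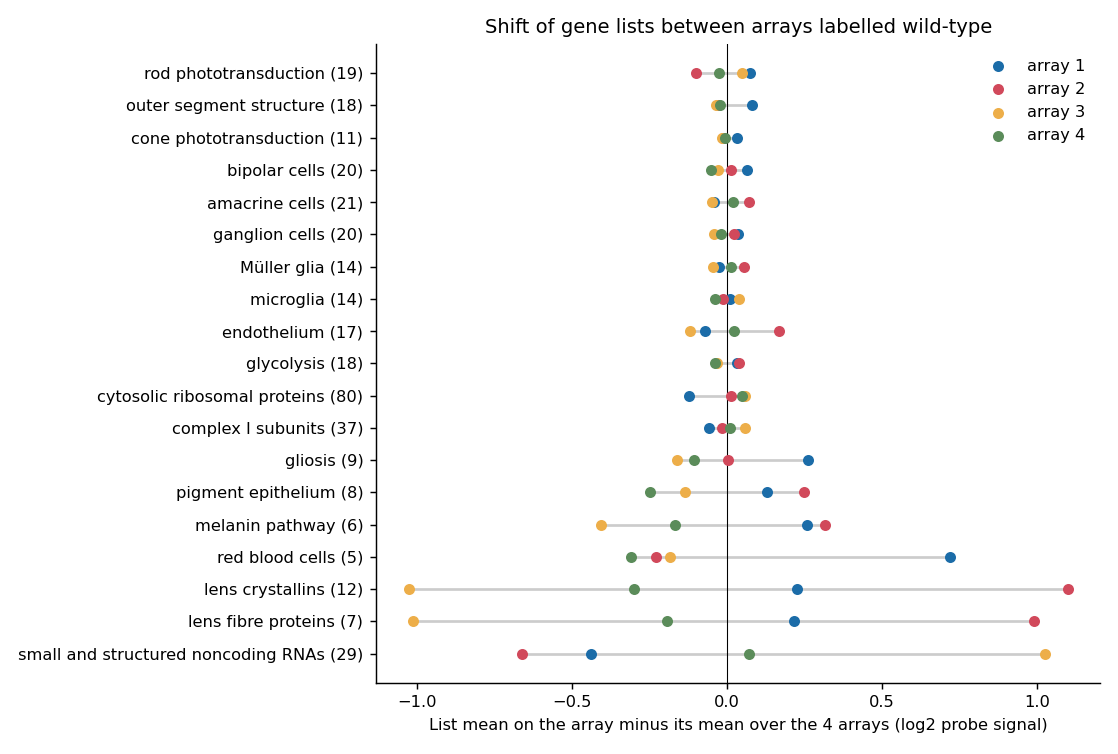
Shift of gene groups between arrays. The horizontal axis is the mean log2 signal of a group on an array minus its mean over 4 arrays labelled wild-type, each point is an array and the number of genes averaged is in brackets. Retinal neuron and glia groups stay close to 0, whereas lens genes reach both ends on arrays 2 and 3, noncoding RNAs are high on array 3 and red blood cell genes on array 1.

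The sex-linked genes differed between arrays in the extreme. Xist, which silences an X chromosome in female cells, was at 9.88, 8.70, 1.49 and 1.48. The Y-linked Eif2s3y was at 1.52, 9.55, 10.66 and 10.79, Ddx3y at 1.46, 6.10, 6.91 and 7.39, Kdm5d at 1.61, 7.54, 8.62 and 8.87, and Uty at 1.47, 7.58, 9.54 and 9.42. Array 1 thus had Xist without the Y-linked genes, arrays 3 and 4 had the Y-linked genes without Xist, and array 2 had both. The arrays therefore differed in sex-linked signal, and array 1 was the only array without that of the Y-linked genes. The blood genes were highest on array 1 as well, and sex and other differences of this array cannot be told apart. Eif2s3x, the X-linked partner of Eif2s3y, was at 8.24, 9.85, 10.26 and 10.63 with its brightest probe, the order of Eif2s3y, but at 7.54, 7.15, 7.25 and 6.64 with another probe. These genes were not counted among the 285, except Eif2s3x, since none was well above background on all 4 arrays.

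**Figure D5:**
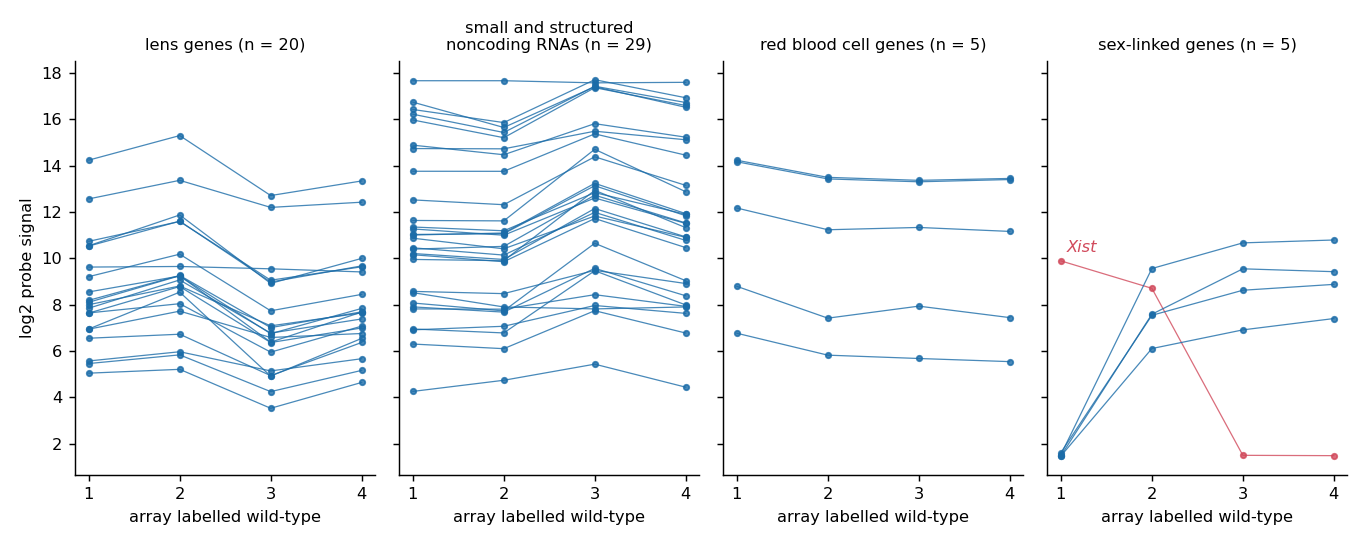
Values of 4 gene groups on each array. The vertical axis is the normalized log2 probe signal, the horizontal axis the arrays labelled wild-type, which have no order, and a line joins the values of a gene. Lens genes peak on array 2, noncoding RNAs on array 3 and red blood cell genes on array 1, and Xist (red) is high on arrays 1 and 2 while the Y-linked genes are high on arrays 2, 3 and 4.

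Some single genes with a large spread showed it on 1 of their probes and not on the others. The largest SD, 2.45, was that of the progranulin gene Grn, at 16.18, 16.39, 11.14 and 13.85. Its other probes, with means of 13.76 and 7.46, had SDs of 0.09 and 0.21. Without array 2 the brightest probe of Grn was another one, and its SD was 0.0367. The synaptotagmin gene Syt10, at 8.09, 8.59, 4.40 and 4.39, had a second probe with an SD of 0.07. Hgfac was high on array 4 alone, at 4.67, 4.48, 4.88 and 7.84, and Grap on array 2 alone, at 5.05, 7.65, 4.47 and 4.61. The oxytocin receptor gene Oxtr, at 8.31, 7.49, 5.47 and 5.97, was higher on arrays 1 and 2. Hgfac, Grap and Oxtr each had a single probe, so whether another probe would share their spread cannot be told. Hgfac and Grap were also dim, with mean signals of 5.47 and 5.45, where the lowest mean of a detected gene was 3.76. Of the 25 genes with the largest SD, 9 were lens genes and 6 were snoRNA genes. Of the 285 genes with an SD of at least 0.5, 154 (54.0%) were highest on array 2, against 29.8% of all genes, and 133 (46.7%) lowest on array 3, against 35.3%. The smallest SDs, those of Slc37a4, Naa20, Itga7, Pign, Tars2, Mios, Myo1d, Mfap3, Ddit4 and Gtf2h5, were between 0.0034 and 0.0095.

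Arrays 2 and 4, the closest pair, stood together against arrays 1 and 3 in several members of the lists, named here after their values were seen. Ocln, a tight junction gene of the blood-retinal barrier, was at 3.82, 5.43, 4.01 and 5.15, and the homeobox gene Isl1 of bipolar and ganglion cells at 11.09, 11.74, 11.01 and 11.59. The clock output gene Hlf went the other way, at 11.93, 10.67, 11.80 and 10.87. The mean of the 17 clock genes well above background, Hlf included, had an SD of 0.052 between arrays.

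The very brightest probes did not all read as their gene names would. The 30 genes with the highest signal included Kctd14, at 17.80, 17.87, 17.87 and 17.87, the liver bile acid transporter gene Slc10a1, at 17.87, 17.80, 17.80 and 17.80, and Elk1. Of the 30, 18 had more than 1 probe, and in 12 of these another probe of the same gene was at least 8 log2 units dimmer. The second probe of Slc10a1 had a mean of 3.80. With the median over the probes of each gene in place of the brightest probe, 14 of the 30 genes remained and 5 of the new 30 were photoreceptor genes, against 4 with the brightest probe. Of the 7899 genes with several probes, the median gap between the brightest and the dimmest was 2.84.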

How the data were processed

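For each one-color array the authors deposited the scanner file written by Agilent Feature Extraction 11.0.1.1. Its processed signal intensity is corrected for background and spatial trend within the array and is not normalized between arrays. They also deposited a table of intensity values per probe, which matched the mean processed signal of the scanner output within 0.1% for all 56605 probes. Here, control spots and spots marked as outliers (78 to 99 per array) were left out, the log2 processed signal was averaged per probe and the 4 arrays labelled wild-type were normalized by the quantile method in limma 3.58.1 (R 4.3.3), as the methods of the study name. The study filtered out probes flagged A before normalization, and here all probes were normalized, with the quantile method over probes well above background as an alternative. Tables were made in Python 3.11.15 with pandas 2.3.3 and numpy 2.4.6. A probe was well above background by the flag of the software on every retained spot. Accessions named 32994 probes (58.3%) through the RefSeq table of GRCm38.p6. The array design uses an older build, so coordinates are those of RefSeq only. No group was compared by a test. The spread calculation was tested on simulated data. The scanner output of the arrays labelled Mrp4-null served for Abcc4 only.

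Genes named in the text are members of 55 lists, noncoding RNAs of a group formed by annotation after the values were seen, the 30 with the highest signal, and the 25 with the largest and the 10 with the smallest SD among genes well above background on all 4 arrays. The lists and the arrays were chosen with earlier results of these data known. The processing was varied by scaling to the 75th percentile of each array, by cyclic loess, by quantile normalization over detected probes and by no normalization, and further with normexp correction (offset 50), outlier spots kept, the deposited table, the median over probes, other filters and thresholds, and each array left out. The files used hold no mean signal, so normexp used the median signal. Some genes of the lists are not reported here by name.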

Additional observations from a re-analysis of the deposited data

Results flagged for a closer look

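The gap between the most extreme array and its nearest neighbour, as a share of the range of the 4 arrays, was computed for 55 list means and 66 genes named in the text. The share was above Dixon's critical value for 6 list means and 9 genes, where chance flags about 1 in 20 values. That rate does not hold for these genes, since many were named for their values and some, such as the globin genes and their list, are not independent. Array 1 stood above the others in the mean of the outer segment genes (share 0.90), with a whole range of 0.12 in log2 signal. It also stood above in the mean of the red blood cell genes (0.879), in Hba-a1 (0.851), Hba-a2 (0.856) and Hbb-bt (0.831), and in Terc (0.879). Array 1 stood below the others in Eif2s3y (0.867). Array 2 stood above in the astrocyte connexin gene Gja1 (0.966), which was at 1.63, 3.93, 1.56 and 1.55 and well above background on array 2 alone. Array 3 stood below in the means of 4 muscle genes (0.874, whole range 0.152) and 5 glycine receptors (0.913, range 0.110), and above in those of 29 vomeronasal receptors (0.845, range 0.168) and 3 taste receptors (0.905, range 0.325). Array 4 stood above in Hgfac (0.881). In Kctd14 and Slc10a1 (1.00 each) array 1 differed from the other 3 arrays, which quantile normalization had set to the same value because these were the brightest probes.

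The probes without a gene name entered no list and no count of genes. Of 23611 such probes, 12926 (54.7%) were well above background on all 4 arrays, and 34 of the 100 brightest probes were among them.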

How the results depend on the processing

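No paired analysis was possible because no groups were compared. The number of genes with an SD of at least 0.5, 285, was 1064 without normalization, 86 with normexp correction, 2529 with no filter on dim probes and 26 at an SD of at least 1. It ranged from 256 to 442 when an array was left out, the most without array 4. The median SD of 0.139 was 0.308 without normalization. Of the 35 photoreceptor genes in the top 5%, 21 were in the top 1%, and the count was 33 to 35 under all other alternatives run. Gliosis genes were highest on array 1 in 5 cases without normalization and in 5 with normexp, and ribosomal protein genes were highest on array 3 in 59 cases after a shift to the 75th percentile and in 0 without normalization. The lens list mean kept an SD between 0.63 and 1.11 over its alternatives, with 14 to 22 genes at an SD of at least 0.5. Lens genes were highest on array 2 in 20 of 20 cases, or in 19 of 19 with only probes well above background kept, and noncoding RNAs highest on array 3 in 27 or 28 of 29, in alternatives added after the values were seen. The level of a named gene moved by less than its SD in 654 of 717 recomputed values, and 27 of the 63 that moved more did so under normexp, which was run on the median signal in place of the planned mean signal. Under the shift, cyclic loess, no normalization, outlier spots kept and the deposited table, 0 of 66 levels moved. The shift leaves a gene's mean over the 4 arrays as it was without normalization, so it cannot test the level separately. The SD of a named gene moved by less than its own size in 671 of 717 recomputed values and by more in 46. Values of dim probes are the least certain, with a median SD of 0.254 in the lowest 10% by signal.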

Other observations

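Several lists not described above were examined as well. Of all named genes, 69.0% were well above background and 5.00% were in the top 5%, and the counts below stand beside these shares. All 25 antioxidant enzyme genes were well above background, with 5 in the top 5%, among them the glutathione peroxidase Gpx4 at 15.50 ± 0.07 (SD, n = 4) and the superoxide dismutase Sod1 at 14.80 ± 0.07 (SD, n = 4). All 10 heat shock genes were well above background and 5 were in the top 5%. Of 14 immediate early genes, 13 were well above background and none was in the top 5%. The 13 interferon-stimulated genes were all well above background, with a median place of 59.9 and a list SD of 0.056. Complement genes were well above background in 10 of 12 cases, and C4b, at 10.02, 9.54, 9.47 and 9.27, was highest on array 1. Of the 85 cytosolic ribosomal protein symbols, 83 were on the array, and 63 of the 80 well above background were lowest on array 1, against 24.5% of all genes. They were highest on array 3 in 39 of 80 cases, in 59 of 80 after a shift to the 75th percentile and in 0 of 80 without normalization.

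Some families that were mostly at background still differed between arrays in the members above it. Of 96 olfactory receptor genes well above background on all 4 arrays, 51 were highest on array 3, and so were 12 of 19 keratins and 15 of 21 keratin-associated proteins, against 25.8% of all genes. Of 4 beta-defensin genes, 1 was highest on array 3. The 96 olfactory receptor genes were dim, with a mean of 5.70. These counts were not repeated under other processing. Of 372 zinc finger genes with a Zfp symbol, 344 were on the array and 329 of these were well above background, with a median SD of 0.129.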
